A study of Homo sapiens with 6 samples.

Results

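The integrin subunit genes described here are ITGA2B, ITGB3, ITGA2, ITGA5, ITGA6, ITGAV, ITGAL, ITGB1, ITGB2 and ITGB5, which encode receptors of megakaryocytes, platelets and leukocytes. They were picked by name with earlier results of these data known, as were the gene lists used below. They are 10 of the 58735 genes in the count table and 10 of the 26 integrin subunits known in humans. All 10 passed the filter on low counts. The RNA came from Meg-01, an established human megakaryoblastic leukaemia cell line, grown untreated (control, 3 libraries) or with 500 µM sodium propionate (C3, 3 libraries), a fatty acid that bacteria of the gut release. The labels give 48 h of stimulation, the study's methods name 24 h and 48 h, and a legend of the study describes the replicates as technical, so p-values measure the spread between libraries and need not cover that between cultures. The study had followed CD61, the protein of ITGB3, as a marker of megakaryocyte maturation. It reported more CD61 mRNA in Meg-01 after C3, and more CD61 on the cell surface at a lower dose and after longer times. The comparison here asks how the integrin mRNAs of the same cell line differed after C3.

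An integrin is a receptor built of an alpha and a beta chain that joins the outside of a cell (matrix, plasma proteins or another cell) to the actin cytoskeleton. On platelets the pair of ITGA2B and ITGB3 binds fibrinogen and holds an aggregate together, and the pair of ITGA2 and ITGB1 binds collagen. ITGA5 and ITGA6 join ITGB1 in receptors for fibronectin and laminin, ITGAV joins ITGB3 or ITGB5 to bind vitronectin, and ITGAL with ITGB2 forms LFA-1, the leukocyte receptor for ICAM molecules. A chain without its partner is largely kept inside the cell, so both mRNAs of a pair are of interest.

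The libraries held 16159449 to 22821722 counts, and 15078 genes, those with 10 or more counts in 3 or more libraries, were tested. Counts are given below as normalized counts, that is, counts scaled with TMM factors to the mean library, and a gene passed the test at an adjusted p-value below 0.05 in edgeR's quasi-likelihood test. Of all tested genes 19.8% passed, 11.0% with higher and 8.77% with lower values after C3, a split of 55.6% higher among those called. Scaling by library size alone, without TMM factors, turned this split into 79.2% higher, and DESeq2 gave 49.1% higher. The lineage was visible in the markers. Of 17 megakaryocyte markers 14 were tested, and all 17 summed to 34770 to 36326 normalized counts in control and 32863 to 35252 in C3 libraries, whereas PF4 and GP1BB were at 0 in every library. Within this list ITGB3 rose and GP1BA, TUBB1 and NFE2 fell, and 35.5% of the exon bases of TUBB1 lie opposite another gene. The 6 erythroid markers summed to 868 to 969 in control and 986 to 1080 in C3 libraries, with ALAS2 higher (adjusted p = 0.037 by edgeR, 0.13 by DESeq2, and up to 0.20 with single libraries left out), and the part of other lineages in the integrin values was not tested. PF4 and GP1BB share 52.1% and 100% of their exon bases with another gene on the same strand. In bulk RNA, fewer cells with an mRNA and less of it per cell cannot be told apart.

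After C3, 6 of the 10 integrin mRNAs rose (ITGAL, ITGB5, ITGA6, ITGB3, ITGA2 and ITGAV), 0 fell, and ITGA2B, ITGB1, ITGB2 and ITGA5 did not pass the test. No member was lower at an unadjusted p-value below 0.05 in edgeR either, and DESeq2 and limma-voom called 0 lower. The 6 of 10 stand beside 11.0% of all tested genes that were higher, as a description only, since the members were chosen with earlier results known. By the gates of the study for DEGs (adjusted p-value below 0.01 and fold change above 1.3), 3 of the 10 were higher, ITGAL, ITGB5 and ITGA6, beside 5.05% of all tested genes with higher values, 1.47% with lower values and 6.52% in all. The median log2 fold change of the 10 genes was 0.27, and that of all tested genes 0.0021. In 6 of the 10, the lowest C3 library exceeded the highest control library, as in 17.5% of the tested genes. The calls of ITGAL, ITGB5 and ITGA6 at an adjusted p-value below 0.05 were kept in all 12 alternative analyses, whereas those of ITGB3, ITGA2 and ITGAV were lost in several, as given with each gene.

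**Figure D1:**
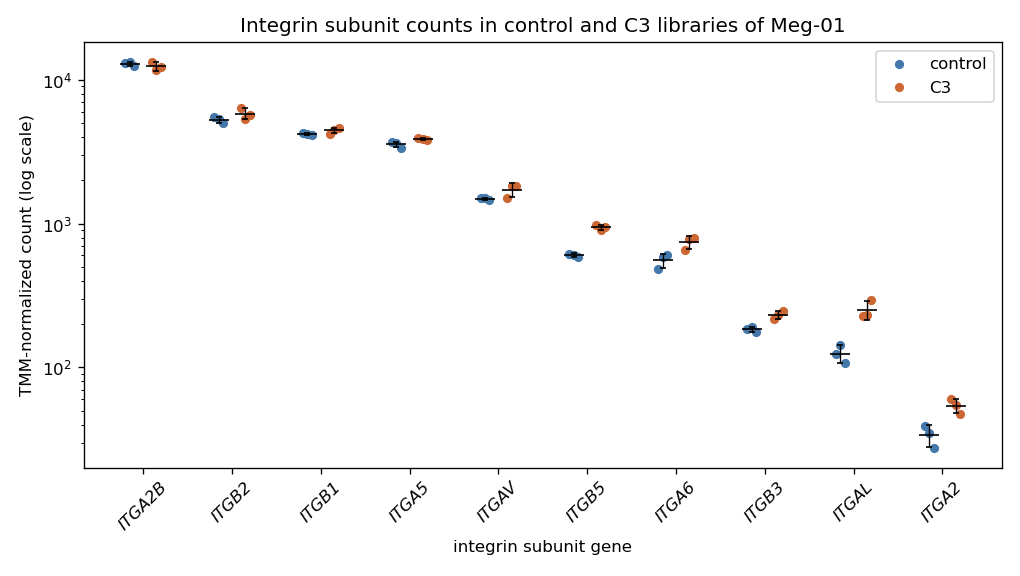
Normalized counts (log axis) of the 10 integrin subunit genes in the 3 control and 3 C3 libraries, ordered by their control mean, where each point is a library and the bars give the mean and SD. The libraries of the groups lie apart for ITGB5, ITGAL, ITGA6, ITGB3, ITGA2 and ITGA5 and overlap for ITGA2B, ITGB2, ITGB1 and ITGAV.

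ITGA2B (ENSG00000005961), the alpha chain of the platelet fibrinogen receptor, maps to chromosome 17 of GRCh38 (reverse strand, 44372180 to 44389649). Its normalized counts were 12966, 13256 and 12484 in control libraries and 13336, 11611 and 12185 in C3 libraries. The groups overlapped, with the highest and the lowest value both after C3. Means of 12902 ± 390.3 and 12377 ± 878 (SD, n = 3 each) gave a log2 fold change of -0.060 (95% interval -0.20 to 0.075, adjusted p = 0.57 by edgeR), and library size alone as the scaling turned its sign to 0.012. The interval includes 0 and allows a small difference in either direction. With single libraries left out, the log2 fold change ran from -0.11 to -0.014.

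ITGB3 (ENSG00000259207), the beta chain of the same receptor and the gene of CD61, maps to chromosome 17 (forward strand, 47253827 to 47313743). Its normalized counts were 186, 189.8 and 176 in control libraries and 219, 232 and 248 in C3 libraries. The groups lay apart, with C3 higher. The means of 184 ± 7.42 and 233 ± 14.7 (SD, n = 3 each) corresponded to a 1.27-fold rise (log2 fold change 0.34, standard error or SE 0.11, edgeR adjusted p = 0.033). The exact two-sided permutation test gave 0.1, which is the lowest possible with groups of 3. DESeq2 did not call the gene (adjusted p = 0.115), and edgeR lost the call when any of 5 of the 6 libraries was left out, keeping it only without C3 replicate 1 (adjusted p between 0.019 and 0.17 over the 6).

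The count of ITGB3 may cover only a part of its mRNA. In GENCODE release 44, a longer protein-coding gene on the same strand, ENSG00000259753, shares 33.2% of the exon bases of ITGB3 and 95.9% of its coding bases. That gene is in the count table too, with 0 counts in all 6 libraries. By default featureCounts leaves out a read that lies on exons of 2 genes, and the setting used is not given in the sources used here. Under that default the count rests on the 3675 of 5941 bases of the main ITGB3 transcript that are not shared, most of them untranslated. The part of this overlap in the ITGB3 values was not tested.

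ITGAV (ENSG00000138448), the alpha chain of vitronectin receptors, maps to chromosome 2 (forward strand, 186590010 to 186680901). Its normalized counts were 1508, 1495 and 1466 in control libraries and 1501, 1816 and 1833 in C3 libraries. C3 replicate 1 lay among the control libraries and the other C3 libraries above them. The log2 fold change was 0.21 (SE 0.071, edgeR adjusted p = 0.041), a 1.15-fold rise, with an exact permutation p-value of 0.2. DESeq2 did not call it (adjusted p = 0.083), and edgeR kept the call only without C3 replicate 1, the adjusted p-value running from 6.7e-04 to 0.23 with single libraries left out.

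ITGB5 (ENSG00000082781), another beta partner of ITGAV, maps to chromosome 3 (reverse strand, 124761948 to 124901418), and shares no exon bases with another gene. Its normalized counts were 617, 608 and 581 in control libraries and 985, 902 and 940.3 in C3 libraries. The lowest C3 library stood far above the highest control library, and the libraries within a group lay close together. Means of 602 ± 18.5 and 942 ± 41.0 (SD, n = 3 each) gave a log2 fold change of 0.64 (SE 0.072, edgeR adjusted p = 4.6e-07), a 1.56-fold rise. With each library left out, the log2 fold change stayed between 0.62 and 0.68.

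ITGA6 (ENSG00000091409), the alpha chain of laminin receptors, maps to chromosome 2 (forward strand, 172427354 to 172506459). In normalized counts it had 486, 583 and 602 in control libraries and 654, 785 and 795 in C3 libraries. The groups did not overlap, although the lowest C3 library came near the highest control library. Its log2 fold change was 0.43 (SE 0.089, edgeR adjusted p = 0.0011), a 1.34-fold rise. Without control replicate 1 or C3 replicate 3 its adjusted p-value was 0.017 and 0.014, outside the DEG gates. Alternative splicing gives this chain different cytoplasmic tails, which counts per gene do not separate.

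ITGA2 (ENSG00000164171), the collagen-binding alpha chain, maps to chromosome 5 (forward strand, 52989340 to 53094779). It had the lowest level of the 10 genes, with normalized counts of 39.2, 35.0 and 27.5 in control libraries and 60.3, 54.6 and 47.8 in C3 libraries. The C3 libraries lay above the control libraries, on raw counts of 23 to 61. The log2 fold change of 0.66 (SE 0.23, edgeR adjusted p = 0.049) was close in size to that of ITGB5, with a standard error over 3 times as large. DESeq2 (adjusted p = 0.15) and limma-voom (0.059) did not call it, nor did edgeR without any 1 of the libraries (0.052 to 0.15).

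ITGA5 (ENSG00000161638), the alpha chain of the fibronectin receptor, maps to chromosome 12 (reverse strand, 54395261 to 54419266). In normalized counts it had 3678, 3605 and 3377 in control libraries and 3954, 3859.8 and 3804 in C3 libraries. The groups did not overlap, and yet the difference was small, a log2 fold change of 0.12 (95% interval -0.0024 to 0.25, adjusted p = 0.16 by edgeR). ITGB1, the beta partner of ITGA2, ITGA5 and ITGA6 (ENSG00000150093; chromosome 10, reverse strand, 32887273 to 33005792) had 4257, 4185 and 4153 in control libraries and 4223, 4473 and 4619 in C3 libraries. C3 replicate 1 lay within the control range, and the log2 fold change was 0.081 (95% interval -0.045 to 0.21, adjusted p = 0.39 by edgeR).

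ITGAL (ENSG00000005844), the alpha chain of LFA-1, maps to chromosome 16 (forward strand, 30472658 to 30523567). In normalized counts it had 123, 143 and 107 in control libraries and 229, 233 and 295 in C3 libraries. Every C3 library stood well above every control library. Means of 125 ± 17.9 and 252 ± 37.1 (SD, n = 3 each) gave a log2 fold change of 1.02 (SE 0.14, edgeR adjusted p = 5.9e-06), a 2.03-fold rise and the largest of the 10 genes. It lay between 0.89 and 1.13 with each library left out. Genes on the opposite strand cover 6.28% of the exon bases of ITGAL and 5.26% of those of ITGA6. The opposite genes of ITGAL had 0 to 1 counts in the 6 libraries, and those of ITGA6 0 to 12, against 496 to 1014 raw counts of ITGA6.

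ITGB2 (ENSG00000160255), the beta chain of LFA-1 and of all other leukocyte integrins of its class, maps to chromosome 21 (reverse strand, 44885953 to 44931989). In normalized counts it had 5475, 5314 and 4979 in control libraries and 6396, 5371 and 5692 in C3 libraries. The groups overlapped, since C3 replicate 2 fell below control replicate 1. The log2 fold change was 0.15 (95% interval 0.0065 to 0.29), with an adjusted p-value of 0.14 by edgeR. It ran from 0.076 (without C3 replicate 1) to 0.20 with single libraries left out. Scaling by library size alone brought ITGB2 (0.22) and ITGA5 (0.20) past the test. The summed levels of leukocyte markers overlapped between control and C3 libraries. The 5 T cell markers summed to 33.3 to 51.3 normalized counts in control and 35.3 to 50.7 in C3 libraries, and 0 of the 2 tested passed, also at an unadjusted p-value below 0.05 in edgeR. The 4 B cell markers summed to 55.1 to 80.3 and 58.0 to 79.7, with MS4A1 at 0. Of 8 monocyte and granulocyte markers, summing to 3429 to 3637 and 3227 to 3570, FCGR3A was at 0, LYZ fell (log2 fold change -0.51, adjusted p = 4.7e-05 by edgeR) with 34.7% of its exon bases opposite another gene, and SPI1 made up most of the sum.

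To set a pattern beside its sequence, the 250 bases before the main start site are shown for ITGB5 and ITGA6, which passed the DEG gates, and for ITGA2B, which had the highest level and did not pass the test. RefSeq windows on GRCh38.p14 were found for 7 of the 10 genes, and not for ITGB3, ITGAL and ITGB2. The sequences read 5′ to 3′ on the strand of the gene, at chr3:124887366-124887615, chr2:172427336-172427585 and chr17:44389650-44389899. Capitals mark every match on either strand to 4 short motifs, and no matches overlap. The GATA motif was searched as GATAA. The ETS motif was searched as GGAAG. The SP1 motif was searched as GGGCGG. The TATA box was searched as TATAAA.
ITGB5: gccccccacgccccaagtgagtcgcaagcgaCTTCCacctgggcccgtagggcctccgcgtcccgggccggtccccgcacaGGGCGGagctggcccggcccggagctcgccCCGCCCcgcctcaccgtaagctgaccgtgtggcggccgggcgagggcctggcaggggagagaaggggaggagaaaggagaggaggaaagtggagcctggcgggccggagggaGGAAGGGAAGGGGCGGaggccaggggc
ITGA6: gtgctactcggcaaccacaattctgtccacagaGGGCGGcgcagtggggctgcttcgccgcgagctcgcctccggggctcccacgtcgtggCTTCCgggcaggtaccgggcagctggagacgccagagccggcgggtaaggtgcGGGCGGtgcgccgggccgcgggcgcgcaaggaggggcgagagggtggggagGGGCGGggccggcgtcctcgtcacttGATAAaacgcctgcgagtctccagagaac
ITGA2B: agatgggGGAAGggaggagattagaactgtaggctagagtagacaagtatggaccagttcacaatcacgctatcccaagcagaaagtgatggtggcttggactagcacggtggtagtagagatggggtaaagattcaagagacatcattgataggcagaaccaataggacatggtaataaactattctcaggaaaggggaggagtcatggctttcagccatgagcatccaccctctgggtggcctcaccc

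The windows of ITGB5 and ITGA6 were rich in GC, with 75.2% and 71.6%, and each held 3 matches to the SP1 motif. That of ITGA2B had 48.8% GC and 0 such matches. Among the other main windows, ITGA2 held 4 matches and ITGAV 0 (both called higher), and ITGB1 held 3 and ITGA5 1 (both not called). The median over all 35116 windows of this length was 58.0%, and 42.6% of them held the SP1 motif. The ETS motif was found 3 times in ITGB5 and once each in ITGA6 and ITGA2B, against 65.1% of all windows with a match. Of the other main windows, ITGAV and ITGA5 held 3 ETS matches each, ITGB1 held 1 and ITGA2 held 0. The GATA motif occurred in ITGA6 (20.4% of all windows) and the TATA box in none of the 3 windows (10.7%). The GC content of these 4 windows was 76.4% for ITGA2, 70.8% for ITGAV, 78.4% for ITGB1 and 70.0% for ITGA5. A match describes letters only, and a window without one says nothing about a factor.

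Levels can be compared between genes only per length. On the scale of RPKM over the main transcript (reads scaled to its length and to the TMM-scaled library), ITGA2B led in control cells with 199 ± 6.03, followed by ITGB2 with 101 ± 4.84, ITGB1 with 60.4 ± 0.77 and ITGA5 with 44.9 ± 1.98 (SD, n = 3). A middle group held ITGAV with 11.4 ± 0.16, ITGB5 with 7.28 ± 0.22 and ITGA6 with 5.14 ± 0.57. ITGB3 with 1.66 ± 0.067, ITGAL with 1.31 ± 0.19 and ITGA2 with 0.23 ± 0.041 were lowest. No neighbours in this order overlapped between control libraries. After C3 only ITGAV (13.1 ± 1.43) and ITGB5 (11.4 ± 0.50) overlapped. The order of ITGAL and ITGB3 after C3 depended on the length, since ITGAL (2.64 ± 0.39) was above ITGB3 over its whole transcript (2.10 ± 0.13) and below it over its unshared bases (3.40 ± 0.21). Over those bases ITGB3 had 2.69 ± 0.11 in control cells, and ITGA2B per kilobase was then 74.1-fold higher than its partner. Merging the exons of all transcripts as the length lowered ITGAV to 4.14 and ITGB1 to 15.5 in control cells and put ITGAL (1.37 ± 0.20) below ITGB3 (1.83 ± 0.12) after C3, so the order among neighbours depends on the length used.

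Partners of a heterodimer need not change together. The log2 ratio of alpha to beta counts within a library, which no scaling of libraries affects, was compared for 8 pairs. In 6 pairs the C3 and control libraries did not overlap, with the alpha chain gaining in 3 and the beta chain in 3. The pairs share members, so the count is given as a description. Among all tested genes 17.5% had C3 libraries wholly above and 16.9% wholly below the control libraries. Those shares are for counts of single genes, and none was computed for ratios between genes. For ITGAL to ITGB2 the ratio was -5.47, -5.21 and -5.53 in control libraries and -4.80, -4.53 and -4.27 in C3 libraries, a gain of 0.87 for the alpha chain. For ITGA2B to ITGB3 it was 6.12, 6.12 and 6.15 in control libraries and 5.93, 5.64 and 5.62 in C3 libraries, a shift of -0.40 towards the beta chain, with the limit on ITGB3 given above. For ITGAV the ratio to ITGB5 shifted by -0.45 and that to ITGB3 by -0.14 (-0.089 without C3 replicate 1), while that to ITGB1 differed by 0.12 with overlapping libraries. Against ITGB1, ITGA6 gained 0.34 and ITGA2 0.60, and ITGA5 differed by 0.046 with overlap (-0.0047 without C3 replicate 1). The 6 pairs without overlap had exact two-sided permutation p-values of 0.1, the smallest possible with 3 against 3 libraries, and 0.13 after adjustment over the 8 pairs, so this test could pass none of them.

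Of the 16 other integrin subunits, 10 were tested and 6 were too low. ITGAM, ITGA9 and ITGA7 rose and ITGAE fell, and the other 6 tested genes did not pass. ITGAM, the alpha chain of Mac-1 and a further partner of ITGB2, had 704, 671 and 560.0 normalized counts in control and 946, 859 and 879 in C3 libraries, a log2 fold change of 0.47 (SE 0.081, edgeR adjusted p = 1.8e-04). ITGA9, a partner of ITGB1, had means of 205 ± 18.3 and 307 ± 24.6, and the laminin-binding chain ITGA7 had 26.4 ± 1.76 and 57.2 ± 8.22 (SD, n = 3 each). Their log2 fold changes were 0.58 and 1.10 (adjusted p = 4.7e-04 and 0.0019 by edgeR). ITGAE, which pairs with ITGB7 to bind E-cadherin, fell from 431 ± 36.6 to 342 ± 40.0 (SD, n = 3), a log2 fold change of -0.34 (adjusted p = 0.015 by edgeR, up to 0.11 when single libraries were left out). Over all 26 subunits, 9 of the 20 tested rose and 1 fell, beside 11.0% and 8.77% of all tested genes, with a median log2 fold change of 0.18. By the DEG gates 6 were higher and 0 lower, beside 5.05% and 1.47%.

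**Figure D2:**
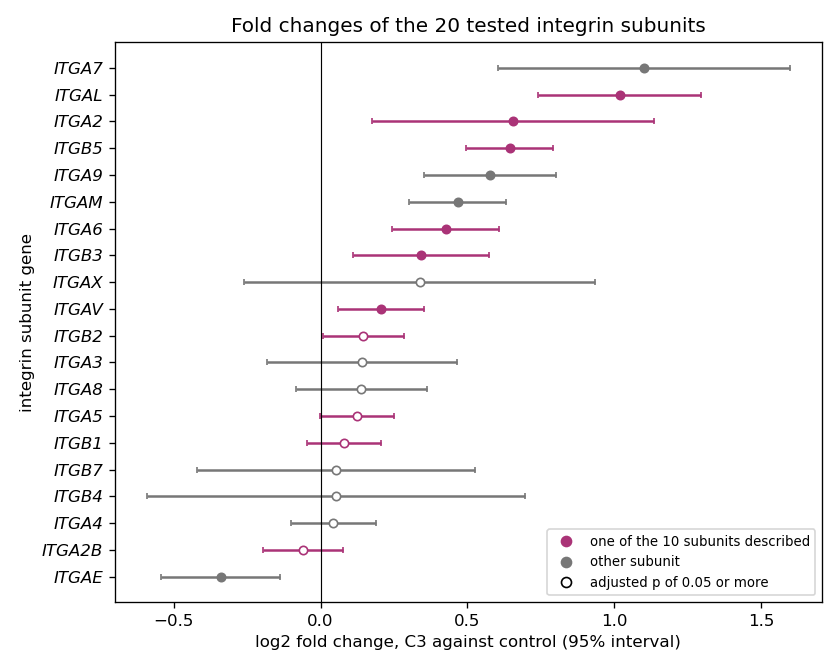
Log2 fold change after C3 with its 95% interval for the 20 integrin subunits that were tested, with the 10 genes described here in purple, other subunits in grey, and open circles for an adjusted p-value of 0.05 or more in edgeR's test. ITGA7 and ITGAL lie highest, at 1.10 and 1.02, and ITGAE is the only one with an interval wholly below 0.

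Proteins that bind the integrin tails and switch the receptors on or tie them to actin were examined as a list of 41 genes, of which 40 were tested. Of these, 7 rose (17.5%) and 4 fell (10%), near the 11.0% higher and 8.77% lower of all tested genes, with a median log2 fold change of 0.063. TNS1, a tensin that joins beta tails to actin, had 122 ± 16.5 normalized counts in control and 224 ± 22.6 in C3 libraries (SD, n = 3 each) and rose with a log2 fold change of 0.86 (adjusted p = 4.4e-05 by edgeR). FLNA, a filamin that holds beta tails inactive, and the tyrosine kinase SRC rose by 0.37 and 0.38 (adjusted p = 0.0012 and 0.0020). PARVB, a parvin of adhesion sites, fell by 0.34, CIB1, which binds the tail of ITGA2B, by 0.28, and the adaptor CRKL by 0.22 on the log2 scale (adjusted p = 4.9e-04, 0.0079 and 0.014). Among the activators of the platelet receptor, RAP1A, a small GTPase that leads to talin, rose with a log2 fold change of 0.25, and APBB1IP, which links Rap1 to talin, fell by 0.17 (adjusted p = 0.011 and 0.045 by edgeR). RASGRP1, on the same list, also rose with a log2 fold change of 0.74 (adjusted p = 0.032 by edgeR). DESeq2 did not call it (adjusted p = 0.12), and its edgeR adjusted p-value reached 0.18 with single libraries left out. RASGRP2 did not pass the test (log2 fold change -0.11, adjusted p = 0.26 by edgeR), nor did the 3 genes that follow. Talin (TLN1) had a log2 fold change of 0.039, kindlin-3 (FERMT3) -0.14 and RAP1B 0.081 (adjusted p = 0.76, 0.16 and 0.44 by edgeR). With single libraries left out, TLN1 ran from -0.044 to 0.12 and RAP1B from 0.013 to 0.14. FERMT3 did pass without C3 replicate 1 (adjusted p = 0.0071). Calls were also lost when single libraries were left out, with adjusted p-values by edgeR of up to 0.066 for RAP1A, 0.18 for APBB1IP, 0.074 for CIB1 (without C3 replicate 3) and 0.13 for CRKL (without control replicate 2, and 0.11 without C3 replicate 3).

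Ligands of integrins were examined as a list of 45 genes, not all of which were read in these cells. Only 26 were tested, and 2 of these, COL1A1 and LAMB2, passed the filter through the C3 libraries alone. Of the 26, 14 rose and 0 fell, beside 11.0% and 8.77% of all tested genes, with a median log2 fold change of 0.39. Without COL1A1 and LAMB2, 12 of 24 rose and the median was 0.34. At an unadjusted p-value below 0.05 in edgeR, 2 ligands were lower, VWF and ICAM2, with log2 fold changes of -0.74 and -0.17 (adjusted p = 0.063 and 0.088), and DESeq2 and limma-voom called 0 lower. THBS1, thrombospondin 1 of platelet granules, rose from 667 ± 47.4 to 1256 ± 68.1 normalized counts (SD, n = 3), LAMA1, a laminin alpha chain, from 78.5 ± 16.7 to 267 ± 38.6, and ICAM5 from 772 ± 56.9 to 1065 ± 15.3. Their log2 fold changes were 0.91, 1.75 and 0.46 (adjusted p = 2.1e-09, 6.1e-09 and 4.4e-05 by edgeR). ICAM1, the main ligand of LFA-1, had 37.2, 26.5 and 44.2 in control and 69.4, 60.3 and 56.5 in C3 libraries, a log2 fold change of 0.78 (adjusted p = 0.017 by edgeR, 0.065 by DESeq2, and 0.11 by edgeR without control replicate 2), and 25.4% of its exon bases lie opposite another gene, as do 11.1% of those of LAMA1 and 26.8% of those of ICAM2. The plasma ligands were nearly unread: FGA, the fibrinogen alpha chain, had 0 counts in all libraries, VTN (vitronectin) at most 2 and FN1 (fibronectin) at most 13.

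Finally, the genes whose pattern over the 6 libraries was most like that of the fibrinogen receptor were sought among 11851 tested genes with a mean of at least 50 normalized counts. Likeness was the root mean square difference of log2 normalized counts, each gene centred on its own mean. Nearest to ITGB3 were EPB41L3, ULBP1 and MARK4, with differences of 0.026, 0.027 and 0.030, and nearest to ITGA2B were ASB6, GAA and GRINA, with 0.013, 0.015 and 0.016. The 3 nearest to ITGB3 had log2 fold changes of 0.31 to 0.35, and the 3 nearest to ITGA2B of -0.069 to -0.041.

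**Figure D3:**
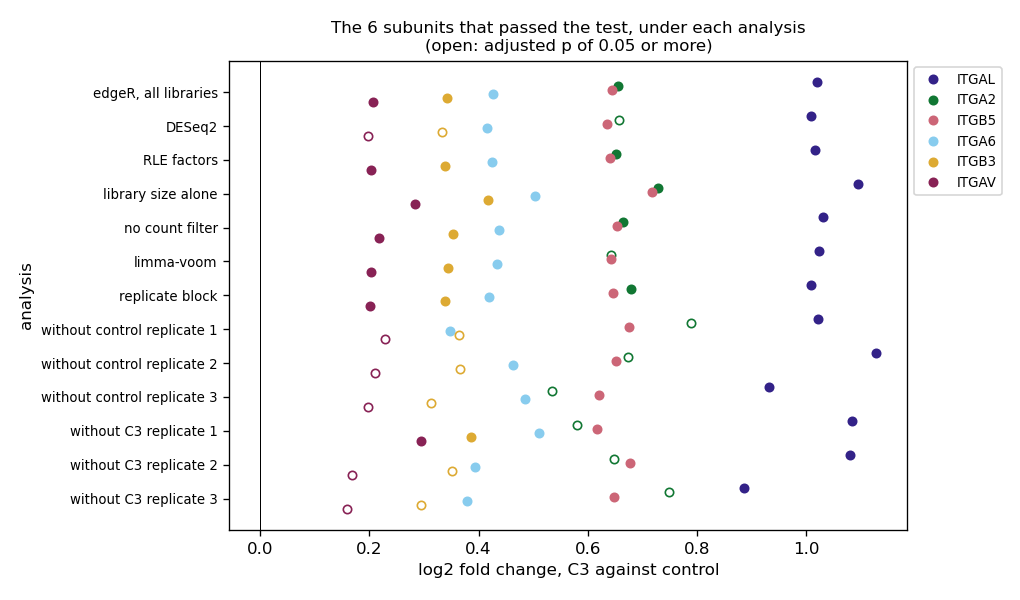
Log2 fold change after C3 of the 6 subunits that passed the test, under edgeR's main analysis and 12 alternatives, with open circles for an adjusted p-value of 0.05 or more. ITGAL, ITGB5 and ITGA6 stay filled in every row, and ITGA2 is open in all analyses that leave out a library.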

How the data were processed

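RNA sequencing of 6 Meg-01 libraries, 3 control and 3 C3, was analysed from the table of raw read counts per gene that the authors deposited. The submitters' processing notes name fastp, STAR 2.6.1d, featureCounts 1.5.0-p3 and GRCh38 (hg38). The annotation release, the strand setting and the treatment of reads on shared exons were not given in the sources used here, and reads without strand cannot tell a gene from its antisense partner.

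Counts were tested with edgeR 4.0.16 (R 4.3.3, TMM factors, quasi-likelihood test, Benjamini-Hochberg adjustment over 15078 genes, those with 10 or more counts in 3 or more libraries). The biological coefficient of variation was 6.21%. On simulated counts of 14884 genes with 3 libraries against 3, edgeR recovered 97% of genes changed 1.5-fold and 100% of those changed 2-fold. It made 9 false calls among 206 over both. These shares were not split by count level, and whether they hold for genes with few counts, such as ITGA2, was not tested. Alternatives were DESeq2 1.42.0, limma-voom (limma 3.58.1), RLE factors, scaling by library size alone, a fit with no count filter, a replicate block and each library left out. Levels per kilobase used GENCODE release 44 transcript lengths, matched for 58207 of 58735 identifiers, and ratios of subunits a pseudocount of 0.5. Intervals cover the spread between libraries only.

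The members and gene lists were chosen with earlier results of these data known. Outside the 10 members, the genes named were the 3 with the smallest p-value in each direction that passed in each list, plus TLN1, FERMT3, RAP1B, FN1, VTN, THBS1, ICAM1 and FGA. RAP1A, APBB1IP, RASGRP1, RASGRP2, VWF, ICAM2, COL1A1, LAMB2 and the lineage markers were named after their values were seen. EPB41L3, ULBP1, MARK4, ASB6, GAA and GRINA were named by the likeness of their pattern over the libraries.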

Additional observations from a re-analysis of the deposited data

How the results depend on the processing

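Of 120 log2 fold changes of the 10 integrin genes recomputed with another setting, 97 had the sign and the call reported. With DESeq2 3 of the 10 integrin genes were higher, the same 3 that passed the DEG gates, and ITGB3 (log2 fold change 0.33), ITGA2 (0.66) and ITGAV (0.20) were no longer called. ITGA2 was also lost with limma-voom (0.64). Scaling by library size alone, which moved the median of all genes to 0.076, reversed ITGA2B (0.012), added ITGA5 (0.20) and ITGB2 (0.22), and gave 0 lower integrin subunits, 12 higher and 2 lower adaptors and 609 lower genes in all. The ligands had 1 lower call with no count filter and 1 with the replicate block. With each library left out, the log2 fold change of ITGB3 was 0.30 to 0.39, of ITGA2 0.53 to 0.79 and of ITGAV 0.16 to 0.30. The genes called higher then numbered 3 to 5 among the 10 members, 6 to 8 among integrin subunits (0 to 1 lower), 4 to 7 among adaptors (1 to 6 lower), 9 to 13 among ligands (0 to 2 lower) and 1053 to 1860 in all (591 to 1891 lower). The lowest counts of higher calls among adaptors, ligands and all genes came without C3 replicate 3, and the most lower calls in all came without C3 replicate 1. Without C3 replicate 1 the split of all calls was 49.6% higher. Shifts in the log2 ratio of subunits ran from -0.50 to -0.34 for ITGA2B to ITGB3, -0.19 to -0.089 for ITGAV to ITGB3, -0.52 to -0.32 for ITGAV to ITGB5, -0.0047 to 0.088 for ITGA5 to ITGB1 and 0.74 to 1.00 for ITGAL to ITGB2. Leaving out the ligands that passed the filter through C3 alone, chosen after seeing the data, gave 12 higher ligands. The causes were not tested. Replicate numbers showed no sign of pairing the libraries. For this, the group mean of each gene was subtracted from its log2 values. What remained correlated at 0.021, -0.047 and 0.030 between same-numbered control and C3 libraries. Between differently numbered ones it ran from -0.077 to 0.064. The replicate block kept all 6 calls among the members and gave 1852 higher and 1550 lower genes. Merged exons as the length, chosen after seeing the data, lowered the level of all 10 genes. Genes with few counts, such as ITGA2, have wide intervals at this depth.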
